A study of Mus musculus with 10 samples.

Results

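Calcineurin is a phosphatase that calcium and calmodulin switch on, and its best known substrates are the NFAT transcription factors, which enter the nucleus once it has removed their phosphates. The 9 genes described here are the catalytic subunits Ppp3ca and Ppp3cb, the regulatory subunit Ppp3r1, the factors Nfatc1, Nfatc2, Nfatc3 and Nfatc4, and the calcineurin-binding regulators Rcan1 and Rcan2. They were chosen by name from 29564 genes listed, and the group was taken up because Rcan1 was lower in HFD+mTAC mice. The difference in Rcan1 between the groups is therefore given as a description, with no test, whereas the other 8 genes entered through their family and were tested. All 9 passed the filter that left 13294 genes for testing.

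Messenger RNA of the left ventricle was sequenced in 10 mice, each giving 1 library: 5 controls, TT-583 through TT-587, and 5 of the HFD+mTAC model, TT-588 through TT-592. All were wild-type male C57BL6 mice (C57BL/6J in the study's methods), bought at 10 weeks of age. The labels describe vehicle dosing for all 10 mice, but the sample titles name vehicle only for the HFD+mTAC mice. HFD+mTAC mice underwent moderate transverse aortic constriction (mTAC), a narrowing of the aorta that puts a pressure load on the ventricle, at 11 weeks of age. From then on they ate a high-fat diet (HFD) with 60% of kilocalories from fat, and dosing began after 16 weeks of the model, while control mice had neither the diet nor the operation and the standard chow held 10%. By the labels, the vehicle, a mixture of DMSO, PEG-300 and water, was given daily at 10 mL/kg over 6 to 9 weeks, with no duration for single mice. Diet and operation were applied together, so their effects cannot be told apart.

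In heart muscle, active calcineurin and nuclear NFAT are known to drive hypertrophic growth, and Rcan1 is known as a feedback regulator. Its gene has 2 main transcription starts, and the internal start is the one that NFAT is known to switch on, so that Rcan1 RNA often serves as a readout of calcineurin activity. The level of Rcan1 in mouse heart is also known to vary with the time of day. The hour at which the hearts were collected is not given in the sources used here.

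The promoters of Rcan1 are shown because its internal one is known for its NFAT sites. Rcan1 lies on the minus strand of chromosome 16 (GRCm38, 92391953 to 92470867, gene ENSMUSG00000022951). The RefSeq table of mouse promoters (GRCm38.p6) holds both of its starts, and the 250 bases before each are printed 5′ to 3′. Capitals mark matches, on either strand, to the NFAT core GGAAA, the AP-1 motif TGANTCA, the cyclic AMP response element TGACGTCA, the E-box CACGTG and the D-box TTATGTAA, the last being the motif of the clock output factors Tef, Dbp and Hlf.
Rcan1 internal start, chr16:92400079-92400328, minus strand: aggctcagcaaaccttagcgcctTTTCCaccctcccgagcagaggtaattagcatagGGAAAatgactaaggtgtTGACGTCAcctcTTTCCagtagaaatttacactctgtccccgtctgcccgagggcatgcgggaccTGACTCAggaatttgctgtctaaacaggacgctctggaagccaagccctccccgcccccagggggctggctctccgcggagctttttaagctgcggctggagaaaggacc
Rcan1 outer start, chr16:92466170-92466419, minus strand: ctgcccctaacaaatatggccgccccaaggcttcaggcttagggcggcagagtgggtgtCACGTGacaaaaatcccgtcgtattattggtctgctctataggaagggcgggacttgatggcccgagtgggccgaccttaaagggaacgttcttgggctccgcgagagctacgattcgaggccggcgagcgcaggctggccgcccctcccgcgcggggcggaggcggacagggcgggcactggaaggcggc

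The window before the internal start held 3 NFAT cores, 1 cyclic AMP response element and 1 AP-1 motif, none of which overlapped another. The cores began 227, 193 and 163 bases before the start, the cyclic AMP response element began 175 bases before it and the AP-1 motif 110 bases before it. The window before the outer start held 1 E-box and none of the other motifs. Among all 32851 promoter windows of this length, 55.6% held at least 1 NFAT core, 6.39% held at least 3, 6.75% held the AP-1 motif, 1.55% the cyclic AMP response element, 6.02% the E-box and 0.819% the D-box. The table held 12 promoters of 7 of the 9 genes, and none for Ppp3ca or Nfatc1. The promoters of Ppp3cb and Nfatc4 and 1 of the 2 promoters of Nfatc2 also held 3 NFAT cores, 1 promoter of Rcan2 held 2, and the cyclic AMP response element was found only in the internal promoter of Rcan1 among these 12. A match is a run of letters and does not show that a factor binds there.

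Levels of single genes are given in CPM, counts scaled to a common total over the genes tested, which allows comparison between mice, and comparisons between genes are made in TPM, which also correct for transcript length. The lengths used are estimates that differ from the annotation by gene. The mean effective length was 2.13 times the longest annotated transcript for Rcan1, 1.92 times for Nfatc4 and 0.529 times for Nfatc2, against a median of 1.34 for genes with 1 transcript, so orders and shares in TPM rest on them. Each library held 34.2 to 53.7 M estimated counts among controls and 35.8 to 46.7 M in the HFD+mTAC group, of which mitochondrially encoded genes took 43.8 to 50.9% and 46.4 to 52.7%. The 6 cardiomyocyte markers were measured at a summed level of 41494 to 46507 CPM among controls and 37062 to 40988 CPM in the HFD+mTAC group. These ranges did not overlap (two-sided exact permutation test, p = 0.0079, the lowest value possible with groups of 5). This p is not adjusted for the other marker sums put through the same test, whose lowest p was 0.103, for the atrial markers. In such a sum the most abundant markers weigh most. All 6 cardiomyocyte markers were lower in HFD+mTAC mice, none past the test across all genes. The summed markers of endothelial cells (1854 to 2334 against 1860 to 2772 CPM) and fibroblasts (987 to 1385 against 1019 to 1434 CPM) overlapped, as did those of smooth muscle, macrophages, T cells, red cells and Schwann cells. Of the T cell markers, Cd3e, Cd3d, Cd8a and Lck were at 0 in some mice. Of the adipocyte markers, each of Adipoq, Plin1, Cidec and Lep was at 0 in at least 1 mouse, and the atrial markers summed to at most 5.3 CPM.

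Rcan1 was the gene of the group that differed most between the 2 sets of mice and also within the control mice. Its level was 221.8, 302.7, 116.4, 62.3 and 86.4 CPM in the control mice, in the order of their numbers. In the HFD+mTAC mice, in the same order (kept for every gene), it was 59.1, 36.8, 68.2, 79.2 and 67.9 CPM. Control mice TT-583 and TT-584 thus stood well above the rest, 4 of the 5 control mice lay above every HFD+mTAC mouse, and control mouse TT-586 lay within the HFD+mTAC range. The means were 158 ± 101 CPM and 62.2 ± 15.9 CPM (SD, n = 5 each), a difference of -1.35 on the log2 scale (SE 0.38), or 2.54-fold lower in HFD+mTAC mice.

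Much of this difference came from the control mice TT-583 and TT-584. Without TT-584 the difference in Rcan1 was -0.97, and without both mice, an omission chosen after the data were seen, it was -0.51 (SE 0.24), or 1.42-fold lower. TT-583 and TT-584 also had the lowest mitochondrial shares of all 10 libraries, 43.8% and 44.0%. Among control mice, Rcan1 varied 4.86-fold from lowest to highest, whereas the median gene with at least 5 CPM varied 1.37-fold. The standard deviation of its log2 level among control mice was above that of 98.9% of these genes. Among HFD+mTAC mice Rcan1 varied 2.15-fold, with a standard deviation above that of 92.0% of genes. In heart tissue as a whole, fewer cells that make a transcript and less of it per cell cannot be told apart, and the part of the lower cardiomyocyte markers in the difference was not tested.

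**Figure D1:**
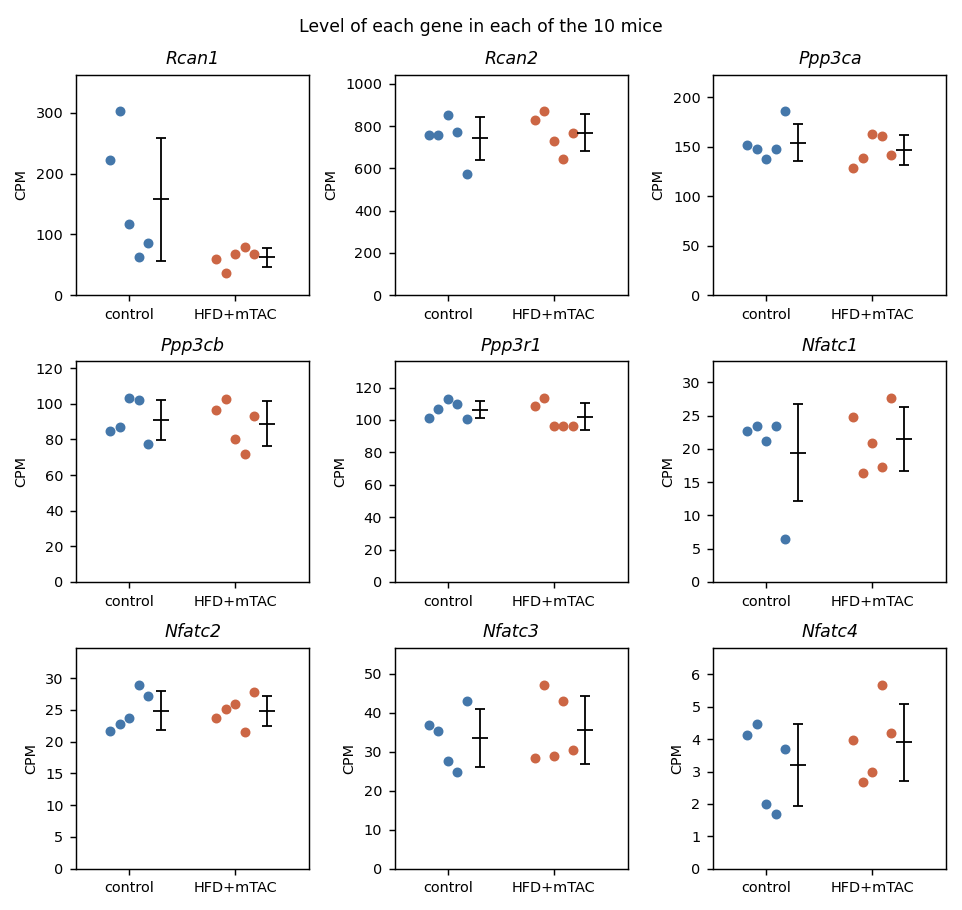
The 9 panels plot the CPM of each gene (vertical axes from 0) in the 5 control mice (blue) and the 5 HFD+mTAC mice (orange), each point being 1 mouse in the order of the mouse numbers, with the mean and SD beside the points in black. Rcan1 reached 221.8 and 302.7 CPM in 2 control mice and stayed at or below 79.2 CPM in HFD+mTAC mice, Nfatc1 was at 6.45 CPM in control mouse TT-587, and in every panel the groups overlap.

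Rcan2, the second member of the regulator family, is on chromosome 17 (GRCm38, 43801351 to 44039516, plus strand) and is the more abundant of the 2 regulators in this tissue. Its level was 756.8, 756.8, 852.1, 772.3 and 571.0 CPM among controls and 830.6, 870.1, 728.8, 644.7 and 765.5 CPM in the HFD+mTAC group. The groups overlapped almost wholly. The log2 difference was 0.05 (SE 0.11, adjusted p = 0.945 in edgeR's quasi-likelihood test), with a 95% interval of the fold from 0.871 to 1.23. Rcan1 made up 7.8 to 32.5% of the summed TPM of Rcan1 and Rcan2 among controls and 4.82 to 12.3% in the HFD+mTAC group, so that Rcan2 was the more abundant in all 10 mice.

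The catalytic subunits carry the phosphatase activity, and neither differed detectably. Ppp3ca (chromosome 3, 136670124 to 136937727) overlaps 1 other annotated gene on the same strand, so that reads may be shared. It was at 151.8, 147.8, 137.4, 147.0 and 185.6 CPM among controls and at 128.4, 138.7, 163.1, 160.3 and 141.3 CPM in HFD+mTAC mice. Its log2 difference was -0.07 (SE 0.10, adjusted p = 0.913), and the 95% interval of the fold ran from 0.819 to 1.10. Ppp3cb (chromosome 14, 20499364 to 20546573) was at 84.9, 87.0, 103.2, 102.2 and 77.3 CPM among controls and at 96.7, 102.6, 80.2, 72.0 and 93.0 CPM in HFD+mTAC mice. Its log2 difference was -0.03 (SE 0.11, adjusted p = 0.966), with an interval from 0.824 to 1.16. For both genes 4 of the 5 mice of each group lay within the range of the other group.

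The regulatory subunit Ppp3r1, which binds calcium and is needed for catalytic activity, was the steadiest of the 9 genes. It lies on chromosome 11 (17159263 to 17200375), where it overlaps Wdr92 on the same strand, so that reads of the 2 genes may be shared. Its level was 101.3, 106.5, 112.8, 109.9 and 100.7 CPM among controls and 108.3, 113.5, 96.2, 96.2 and 96.2 CPM in HFD+mTAC mice. In 3 HFD+mTAC mice it lay just below all control mice, and in 1 just above them. The log2 difference was -0.06 (SE 0.08, adjusted p = 0.906), with an interval of the fold from 0.857 to 1.08. Only 5.62% of genes varied less among control mice.

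The NFAT factors that calcineurin controls were measured at much lower levels, and none differed detectably. Nfatc2 (chromosome 2, 168476410 to 168601657) was at 21.7, 22.7, 23.8, 28.9 and 27.1 CPM among controls and at 23.8, 25.2, 25.9, 21.4 and 27.9 CPM in HFD+mTAC mice. Its means of 24.8 CPM in both groups gave a log2 difference of 0.0016 (SE 0.11, adjusted p = 0.999), with an interval of the fold from 0.850 to 1.18. With the effective lengths it was 0.24 as an offset and 0.27 on log2(TPM + 1), neither past adjustment. Nfatc3 (chromosome 8, 106058840 to 106130537), with Nfatc4 one of the factors most studied in hypertrophy, was at 36.9, 35.2, 27.7, 24.8 and 43.1 CPM among controls and at 28.5, 47.1, 28.9, 43.0 and 30.5 CPM in HFD+mTAC mice. Both groups spread over the same range, and the log2 difference was 0.09 (SE 0.18, adjusted p = 0.939).

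Nfatc4 (chromosome 14, 55823144 to 55833943) was the least abundant member, at 4.13, 4.47, 2.01, 1.69 and 3.70 CPM among controls and 3.97, 2.66, 3.0, 5.67 and 4.18 CPM in HFD+mTAC mice. These levels rested on 24.0 to 86.1 estimated counts a library, and the log2 difference of 0.28 (SE 0.31, adjusted p = 0.878) left an interval of the fold from 0.766 to 1.92. It was 0.14 with a length offset, 0.17 on log2(TPM + 0.1) and 0.06 on log2(TPM + 1). At 0.033 to 0.121 TPM an added 1 shrinks any difference, so the last value is not comparable. It was 0.67 without TT-583 and TT-584, and 0.11 to 0.43 when single mice were left out. Nfatc1 (chromosome 18, 80606205 to 80713071), known for its role in heart valve formation, was at 22.7, 23.4, 21.2 and 23.4 CPM in 4 control mice but at 6.45 CPM in control mouse TT-587. In HFD+mTAC mice it was at 24.9, 16.4, 20.9, 17.3 and 27.6 CPM. The log2 difference was 0.14 (SE 0.28, adjusted p = 0.939), and without TT-587 its sign turned to -0.08. Its interval of the fold, 0.719 to 1.68, was after that of Nfatc4 the widest of the 8 tested genes.

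None of the 8 genes other than Rcan1 passed an adjusted p under 0.05 in edgeR, beside 0.0602% of all genes tested. DESeq2 called 0.903% of all genes and limma on log2(TPM + 1) 0.00752%, and neither called any of the 8. At an unadjusted p under 0.05, edgeR named 8.27% of all genes, DESeq2 8.86% and limma 6.71%, and none named any of the 8. No member had groups without overlap, as 1.96% of all genes did. Over the other 8 genes the median log2 difference was 0.03 and the median of its size 0.07, against 0.00 and 0.12 over all genes tested.

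**Figure D2:**
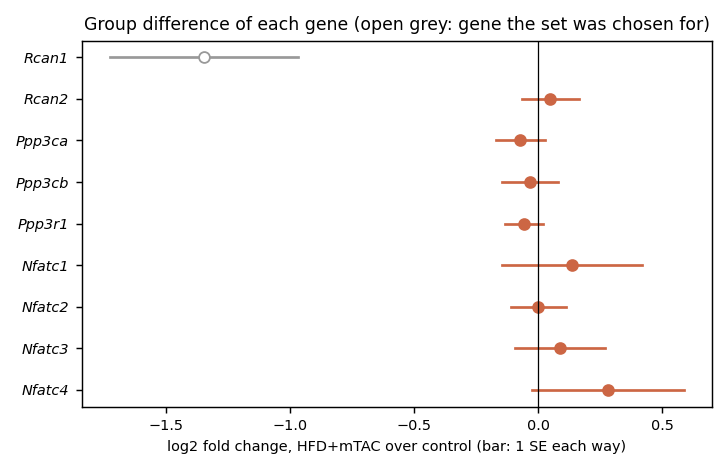
The horizontal axis gives the log2 fold change of HFD+mTAC over control mice from edgeR, with bars of 1 standard error to each side, for each of the 9 genes on the vertical axis. Rcan1, drawn open and grey because the group was chosen for it, lies at -1.35, and the other 8 lie between -0.07 and 0.28.

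Per transcript length, Rcan2 was the most abundant of the group, with a mean of 20.1 TPM over the 10 mice (12.5 to 37.3), and was above Ppp3r1 (4.88 TPM) in all 10 mice. Ppp3r1 was above Ppp3ca (3.80 TPM) in 8 mice and Ppp3ca above Rcan1 (3.65 TPM) in 7, so the order of these neighbours was not the same in every mouse. Rcan1 was above Ppp3cb (3.28 TPM) in only 3 mice, its mean being raised by TT-583 (7.99 TPM) and TT-584 (11.8 TPM). Ppp3cb was above the third catalytic subunit, Ppp3cc (1.599 TPM), in all 10 mice. Among the factors, Nfatc2 (1.05 TPM), Nfat5 (0.942 TPM), the family member that calcineurin does not control, and Nfatc3 (0.841 TPM) did not keep 1 order, Nfatc2 being above Nfat5 and Nfat5 above Nfatc3 in 6 mice each. Nfatc1 (0.539 TPM), Rcan3 (0.165 TPM) and Nfatc4 (0.0766 TPM) closed the list.

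No shift in the make-up of the catalytic pool was detectable. Ppp3ca gave 42.1, 50.9, 37.2, 38.5 and 45.5% of the summed TPM of Ppp3ca, Ppp3cb and Ppp3cc among controls, and 53.4, 37.9, 43.8, 42.2 and 38.8% in HFD+mTAC mice. The means of 42.9 ± 5.56% and 43.2 ± 6.20% (SD, n = 5 each) did not differ detectably (two-sided exact permutation test, p = 0.913). Ppp3cb gave 38.6 ± 3.45% and 37.8 ± 4.74%, and Ppp3cc gave 18.5 ± 2.71% and 19.0 ± 2.51%. Among the 4 calcineurin-controlled factors, Nfatc2 gave 40.5 ± 7.87% of the summed TPM among controls and 43.5 ± 3.41% in the HFD+mTAC group, and Nfatc3 34.8 ± 7.52% and 33.0 ± 8.03%.

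A further readout is the average effective transcript length, by which TPM divides counts, so it is not independent of the choice of the genes. It moves when the mix of a gene's transcripts moves. It also moves otherwise, since genes with 1 annotated transcript varied by a median of 1.27-fold over the 10 mice, against 1.40-fold for all genes tested. Lengths were taken relative to the median gene of each mouse. For Rcan1 the ratio was 1.66, 1.61, 1.48, 1.64 and 1.65 among controls and 1.72, 1.67, 1.56, 1.73 and 1.599 in HFD+mTAC mice. The log2 difference was 0.04 (SE 0.05 in limma), given as a description like the level of Rcan1. The ratio varied only 1.17-fold over the 10 mice, and only 2.20% of genes varied less. The coding transcripts of Rcan1 span 1506 to 2324 bases. Their lengths were not assigned to the 2 starts, so this ratio does not tell which start the RNA came from.

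Ppp3ca, Rcan2 and Nfatc1 showed lengths that stood apart in single mice. For Ppp3ca the ratio was 1.44 in control mouse TT-584 and 1.21 in HFD+mTAC mouse TT-588, and between 1.92 and 2.48 in the other mice. Rcan2 had a ratio of 1.22 in TT-588 and 1.71 to 2.40 elsewhere. TPM divides counts by these lengths, and accordingly TPM was highest for Rcan2 in TT-588 (37.3) and for Ppp3ca in TT-584 (6.46) and TT-588 (5.83), although their CPM in these mice was not. For Nfatc1 the ratio was 0.989 in control mouse TT-587, the mouse with the low count, against 1.64 to 2.40 in the other control mice.

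Of the 8 members other than Rcan1, none had a length ratio that differed between the groups past the test. The smallest p was that of Nfatc2, at 1.29 ± 0.21 in control and 1.09 ± 0.07 in HFD+mTAC mice (SD, n = 5 each, log2 difference -0.22, SE 0.11, adjusted p = 0.587, two-sided exact permutation p = 0.0714). Nfatc4 was at 2.22 ± 0.17 and 2.55 ± 0.33. Limma called 0% of genes at an adjusted p under 0.05 and 7.04% at an unadjusted p under 0.05, and none of these 8 at either. Groups without overlap in length ratio were found for 0.797% of genes and for none of the 9.

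**Figure D3:**
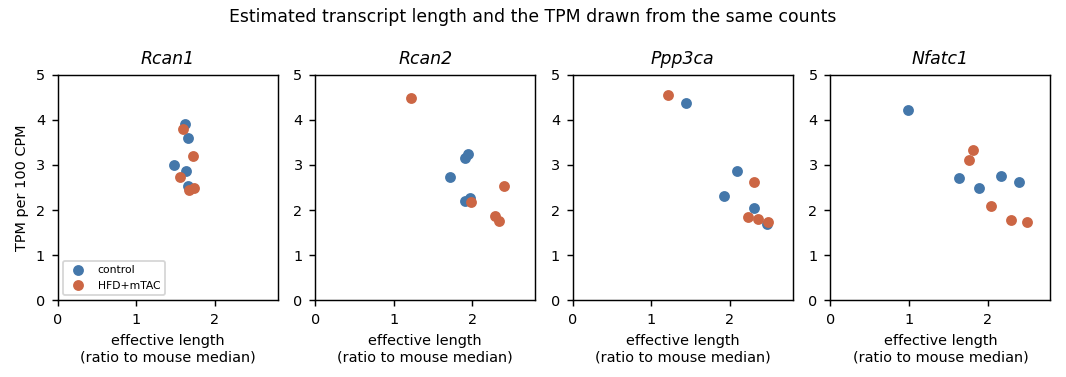
Each panel plots, for 1 gene and each of the 10 mice (control blue, HFD+mTAC orange), the effective length as a ratio to the median gene of that mouse (horizontal) against TPM per 100 CPM (vertical). The points of Rcan1 lie between ratios of 1.48 and 1.73, whereas Rcan2 has 1 HFD+mTAC mouse at 1.22, Ppp3ca has 1 mouse of each group at 1.44 and 1.21, and Nfatc1 has 1 control mouse at 0.989.

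The genes around calcineurin were taken from 7 lists by role, and none of their 55 tested genes passed an adjusted p under 0.05 in edgeR or DESeq2. Unadjusted p was under 0.05 for 6 of them, or 10.9%, beside 8.27% of all genes, and the median log2 difference was -0.01. Of the other family members, Ppp3cc was at -0.05 (SE 0.11) and Rcan3, a further regulator, at 0.14 (SE 0.10), and Ppp3r2 was listed at 0 in every mouse. Among 10 anchors and regulators, Cabin1, an inhibitor of calcineurin, was at 0.15 (SE 0.09, adjusted p = 0.709). Lmcd1, a cofactor known to act with calcineurin in hypertrophy, was at -0.31 (SE 0.11, adjusted p = 0.428), with 53.3 ± 6.18 CPM in control and 42.9 ± 5.43 CPM in HFD+mTAC mice (SD, n = 5 each). Myoz1 and Trpc6 did not pass the filter on counts.

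No gene of calcium entry, calmodulin or the NFAT kinases had an unadjusted p under 0.05. Of 8 genes of calcium entry and calmodulin, 4 were higher and 4 lower, among them Calm2 at -0.18 (SE 0.09) and Calm3 at 0.12 (SE 0.07), both encoding the same calmodulin protein. Of 12 kinases that put phosphate back on NFAT or prime it, 5 were higher and 7 lower, with Dyrk2 at -0.27 (SE 0.13, adjusted p = 0.637) and Dyrk1b at 0.17 (SE 0.11, adjusted p = 0.730). Among 8 transcription partners, the AP-1 subunit Junb was at -0.79 (SE 0.23, adjusted p = 0.332) and Mef2d, a transcription factor, at 0.19 (SE 0.10). Among other substrates, Dnm1l, which divides mitochondria, was at -0.13 (SE 0.08), and Ppp1r1a, an inhibitor of protein phosphatase 1, at 0.75 (SE 0.38) from means of only 1.31 and 2.20 CPM.

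Of 8 genes with which the stressed or calcineurin-driven heart is known to respond, 3 were higher and 5 lower. Acta1, the skeletal actin of the fetal programme, was at 243.2, 343.7, 177.5, 258.7 and 137.7 CPM among controls and 366.4, 219.8, 1121, 407.6 and 422.5 CPM in HFD+mTAC mice. HFD+mTAC mouse TT-590 stood far above the others and the groups overlapped, with a log2 difference of 1.13 (SE 0.38, adjusted p = 0.416). Without TT-590 it was 0.61. Nppb, Nppa and Myh7, named after their values were seen, went in different directions. Nppb was at -0.56 (SE 0.22, adjusted p = 0.504 in edgeR) and Nppa at -0.54 (SE 0.28, adjusted p = 0.659). Myh7 was at 0.35 (SE 0.35, adjusted p = 0.863). Ptgs2, an inducible NFAT and AP-1 target, was at 12.8, 12.0, 13.1, 5.92 and 13.8 CPM among controls and 6.66, 4.96, 8.92, 4.71 and 9.95 CPM in HFD+mTAC mice, a log2 difference of -0.71 (SE 0.26, adjusted p = 0.467).

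**Figure D4:**
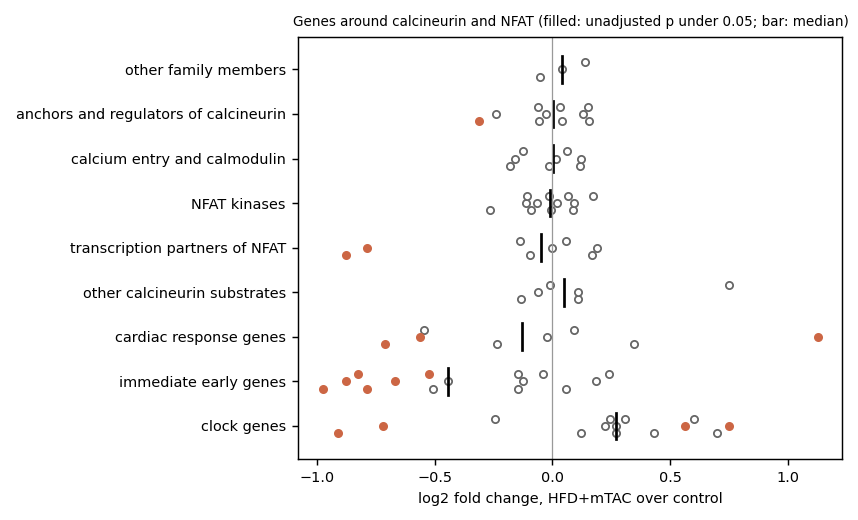
Each point is 1 tested gene of the list named on the vertical axis, placed by its log2 fold change of HFD+mTAC over control mice, filled where the unadjusted p was under 0.05, and the black bars are list medians. The medians of the first 7 lists lie between -0.13 and 0.05, that of the immediate early genes at -0.44 and that of the clock genes at 0.27, and no gene passed an adjusted p under 0.05 in edgeR.

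Immediate early genes, which signals switch on within minutes, and clock genes were set beside Rcan1 because both vary with the state of the animal at collection. Of 15 immediate early genes, 12 were lower in HFD+mTAC mice, with a median log2 difference of -0.44, and 6 had an unadjusted p under 0.05, all lower, where 3.72% of all genes did. EdgeR called none past adjustment and DESeq2 called 2, beside 0.903% of all genes, of which Egr1 was at -0.67 (SE 0.17, adjusted p = 0.262 in edgeR and 0.0186 in DESeq2). Ier3 was at 0.19 (SE 0.15). Fos, Jun and Junb stand both in this list and among the transcription partners. Fos and Junb are thus counted in both totals of 6 genes with an unadjusted p under 0.05. Of 14 clock genes tested, 11 were higher, with a median of 0.27, and none was called, 4 having an unadjusted p under 0.05, beside 8.27% of all genes. Arntl and Clock were listed at 0 in some mice and were not tested. Whether these zeros reflect missing RNA or its quantification was not examined.

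Over the 10 mice Rcan1 ran opposite to most of the clock genes. Tef, a clock output factor, was at 107.4 and 88.3 CPM in control mice TT-583 and TT-584, where Rcan1 was highest, at 160.8, 198.3 and 192.4 CPM in the other control mice, and at 202.6 to 233.0 CPM in HFD+mTAC mice. Its groups did not overlap, which held for 1 of the 14 clock genes tested and for 1.96% of all genes. No gene of the other lists was without overlap. The log2 difference of Tef was 0.56 (SE 0.19, adjusted p = 0.432). The difference was 0.26 without TT-583 and TT-584, 1.82 with a length offset and 2.24 on log2(TPM + 1), none of them past adjustment, so its size depends on the lengths used and on these mice. Nfil3, a repressor at the same D-box motif, was at 37.7 and 39.8 CPM in TT-583 and TT-584 and at 11.8 to 17.8 CPM in the other 8 mice, and its log2 difference went from -0.72 (SE 0.28) to -0.07 without these mice. Dbp, named after its values were seen, was at 11.2 and 12.3 CPM in TT-583 and TT-584 and at 30.7 to 68.8 CPM elsewhere.

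The Pearson correlation of log2 CPM with Rcan1 was negative for 12 of the 13 clock genes with at least 5 CPM, with a median r of -0.76, against 0.00 over 10095 genes. Without TT-583 and TT-584, the mice farthest from the median of Rcan1, it was negative for 9, with a median of -0.15. For Tef, r was -0.94 (Spearman's rho -0.72), and without these mice it was -0.66. For Dbp, r went from -0.83 to -0.15 and for Nfil3 from 0.86 to 0.11, so these relations rest on them. For the immediate early genes the median r was 0.41, and 0.09 without these mice. These values describe 10 mice that share group, and the part of the clock in the level of Rcan1 was not tested.

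**Figure D5:**
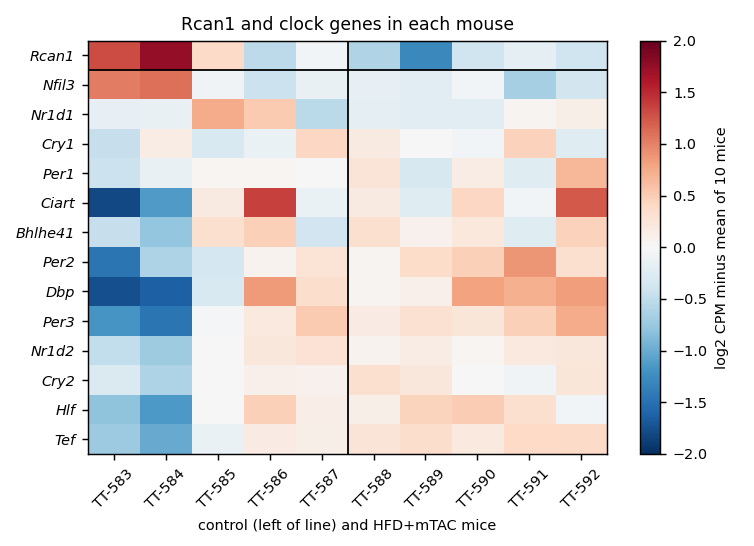
Colours give the log2 CPM of each gene (rows) in each mouse (columns) minus its mean over the 10 mice, for Rcan1 above the line and the 13 clock genes with at least 5 CPM below it, ordered by their correlation with Rcan1. In TT-583 and TT-584 Rcan1 and Nfil3 are at their highest and Tef, Hlf, Per3 and Dbp at their lowest.

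The genes whose level was most like that of Rcan1 over the 10 mice were Creld2 (r = 0.94), Col5a3 (0.94), Ppid (0.94), Phb (0.94) and Xbp1 (0.93), out of 10095 genes with at least 5 CPM. Creld2 and Xbp1 are known from the response to unfolded protein in the endoplasmic reticulum, Ppid is a cyclophilin, Phb a protein of the inner mitochondrial membrane and Col5a3 a collagen chain. Creld2 was at 21.1 and 24.1 CPM in TT-583 and TT-584 and at 12.2 to 17.6 CPM in the other mice. Without these 2 mice r was 0.69 to 0.85 for the 5 genes. They were picked as the highest over the same 10 mice, so this range is no independent support. On log2(TPM + 1) r was 0.40 for Ppid and 0.75 to 0.93 for the others. Spearman's rho on log2 CPM was 0.72 to 0.92 for the 5 genes. After the mean of each group was subtracted, the most alike were Ppid (r = 0.97), Ripk1 (0.96), Nus1 (0.96), Tspan18 (0.95) and Lgi4 (0.95), and for Ripk1 r over the 10 mice was 0.60 and without the 2 mice 0.0059.

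None of the other members compared was among the genes most like Rcan1. The correlation of log2 CPM with Rcan1 over the 10 mice was -0.14 for Rcan2, 0.15 for Ppp3ca, -0.27 for Ppp3cb, -0.09 for Ppp3r1, 0.13 for Nfatc1, -0.54 for Nfatc2 and -0.0021 for Nfatc3, while Nfatc4 was below 5 CPM and was not compared. Nfatc2, with the lowest of these, ranked 9153 of the 10095 genes. Without TT-583 and TT-584 r was -0.18 for Nfatc2, -0.38 for Rcan2, 0.31 for Ppp3ca and -0.30 for Ppp3cb. It was then -0.23 for Ppp3r1, -0.17 for Nfatc1 and -0.29 for Nfatc3, so the order of the members rests on these mice.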

How the data were processed

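According to the study's methods, reads from a stranded mRNA kit were trimmed with fastp, quantified with salmon against GENCODE M25 transcripts of GRCm38 and summed to genes with tximport. The labels give single-end reads of 100 bases, on average 29.8 M a sample, which is below the deposited counts, and the methods paired-end reads of 50 bases, and this was not resolved. The submitters' processing notes name Salmon 1.6.0 and list hg38, which the mouse gene symbols contradict. The authors deposited expected counts, not normalized (20.07% are not exactly whole, with no tolerance), TPM, which are relative to all transcripts of that mouse, and effective transcript lengths in bases, a signal that equals what TPM divides by. Coordinates come from GENCODE M21, where 27812 symbols matched, 868 matched by an older symbol and 884 did not.

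Expected counts were rounded. Genes tested were protein-coding, not mitochondrial, with at least 1 count in 9 of 10 mice. edgeR 4.0.16 (R 4.3.3, TMM, quasi-likelihood test) compared 5 with 5 mice without covariates, Benjamini-Hochberg adjusted over 13294 genes (threshold 0.05). Intervals use the moderated degrees of freedom. Lengths were tested with limma 3.58.1 on the log2 scale after centring on each mouse's median gene. Permutation tests ran over 252 arrangements. Steps were tested on simulated data.

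The labels do not give litter or cage. The members and lists were chosen with earlier results of these data known. Beside the 9 members, the text names the gene with the smallest p in each direction in each list, and the 5 genes most correlated with Rcan1, before and after subtraction of group means. Libraries of a group differed by more than sampling noise (chi-square per degree of freedom at least 12.5). Alternatives included DESeq2 1.42.0, limma on log2(TPM + 1) and log2(TPM + 0.1), other normalizations and filters, and the omission of each mouse.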

Additional observations from a re-analysis of the deposited data

Results flagged for a closer look

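The 72 sets of 5 mice examined each held 1 gene's CPM or length ratio in 1 group. In 7 sets the gap of a mouse to the nearest of the others exceeded Dixon's 95% critical value of 0.71 of the range. Chance would give about 3.6 if the values were normal, which was not checked. The list genes among them were named by their smallest p in these data, so no excess over chance is shown. Control mouse TT-587 was low for Nfatc1, at 6.45 CPM against 21.2 to 23.4 CPM in the other control mice. HFD+mTAC mouse TT-588 had a short effective length for Ppp3ca, a ratio of 1.21 against 2.23 to 2.48. Acta1 was high in HFD+mTAC mouse TT-590, at 1121 CPM against 219.8 to 422.5 CPM. Ptgs2 was low in control mouse TT-586, at 5.92 CPM against 12.0 to 13.8 CPM. Length ratios were also low in control mouse TT-585 for Rcan1, at 1.48 against 1.61 to 1.66, and for Nfatc3, at 1.85 against 2.00 to 2.06, and in control mouse TT-586 for Rcan2, at 1.71 against 1.90 to 1.97. Causes were not tested.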

How the results depend on the processing

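The count of called genes among the 8 members other than Rcan1 was 0 under every alternative run, as was that of their length ratios. For the 81 genes of all 9 lists the count was 0 except under DESeq2, which called 2. Rcan1 was lower in HFD+mTAC mice under every alternative, its log2 difference running from -1.55 to -0.97 when single mice were left out. The 5 genes most like Rcan1 shared 0 with the 5 chosen on log2(TPM + 1) and 0 with those chosen by Spearman's rho. The difference in the Ppp3ca share turned to -0.61 percentage points on counts, and ran from -2.18 to 2.39 when single mice were left out. Signs turned in 33 of 646 values of single genes, and the cause was not tested. Nfatc2 was at -0.0027 with DESeq2's size factors, -0.00052 in DESeq2, -0.0035 with no filter on low counts, -0.00065 with a mean of at least 1 CPM, -0.0023 with all biotypes and -0.098 without TT-583 and TT-584, but at 0.27 and 0.30 in limma on log2(TPM + 1) and log2(TPM + 0.1) and 0.24 with a length offset. Nfatc1 was at 0.33 without TT-583 and TT-584. Ppp3cc was at 0.0033 and 0.0051 in limma on log2(TPM + 1) and log2(TPM + 0.1), where Rcan3 was at -0.041 and -0.040, and Rcan3 was at -0.20 with a length offset. With single mice left out, the log2 difference ran from -0.031 to 0.11 for Rcan2, -0.11 to 0.0037 for Ppp3ca, -0.095 to 0.033 for Ppp3cb, -0.080 to 0.21 for Nfatc1, -0.044 to 0.061 for Nfatc2, -0.04 to 0.19 for Nfatc3, -0.12 to 0.015 for Ppp3cc, and -0.092 to 0.22 for the length of Ppp3ca. No paired analysis was possible because each mouse has its own number. The estimates of Nfatc4 rest on few counts, and effective lengths are model estimates.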
